A study of Mus musculus with 18 samples.

Results

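The 37 genes described here encode the subunits of the mouse proteasome: 7 alpha and 7 constitutive beta subunits of the 20S core, 3 interferon-inducible beta subunits, 17 subunits of the 19S regulatory particle and 3 subunits of the PA28 activators. They were chosen by name from the 27179 gene identifiers of the count table. All 37 were found there, and all 37 passed the filter on low counts that left 16466 genes for testing. The rule goes by gene name and uses no measured value, although the set was picked with earlier results of these data known.

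The proteasome is the chamber in which cells cut up proteins tagged with ubiquitin. Its 20S core is a stack of alpha and beta rings, and the cutting sites lie on the beta1, beta2 and beta5 subunits, encoded by Psmb6, Psmb7 and Psmb5. Interferon induces replacements for these, encoded by Psmb9, Psmb10 and Psmb8, and a core built with them is called the immunoproteasome. It yields peptides suited to presentation on major histocompatibility complex (MHC) class I molecules. The 19S particle recognises, unfolds and feeds ubiquitinated proteins into the core, while PA28 opens the core without ubiquitin or ATP. Genes of the constitutive subunits are known to be raised together by the transcription factor NRF1 (gene Nfe2l1) when proteasome capacity falls short.

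Mammary glands of female mice aged 14 weeks were sorted into 3 epithelial populations, basal cells, luminal progenitors (LP) and mature luminal cells (ML), and the RNA of each was sequenced. The knockout (KO) mice carried MMTV-cre, Brca2 deleted on both alleles and Trp53 deleted on 1 allele, and the wildtype (WT) mice were the controls, per the labels. MMTV-cre puts Cre recombinase under a mammary tumour virus promoter that is active mainly in mammary epithelium. The 3 KO mice and the 3 WT mice each gave all 3 populations, so there are 6 groups of 3 libraries, 18 in all. The strain label reads the same for both genotypes, some titles say knockdown for KO, and whether WT mice carried the transgene is not stated.

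Library totals were 5.97 to 39.19 M counts. In LP they did not overlap, with 22.42 to 32.72 M counts in KO against 9.29 to 16.17 M counts in WT. Trp53 fell in KO libraries of every population. In LP it had 9.05, 7.25 and 7.71 counts per M counts (CPM) in KO, against 67.1, 72.6 and 150.3 CPM in WT (edgeR log2 fold change -3.60 ± 0.36 SE, adjusted p = 2.16e-05). That fall is larger than deletion of a single allele would give by itself, and the reason was not tested. Counts over the whole of Brca2 passed no test (-0.77 in basal, -0.49 in LP and 0.22 in ML cells, log2 fold change), and the files do not separate its deleted part. Summed markers of each sorted population were highest in libraries of that label. In ML cells, 9 basal markers summed to 696 to 861 CPM in ML KO, against 17.9 to 21.1 CPM in ML WT. The 7 mature luminal markers summed to 870.2 to 3911 CPM in ML KO, against 6594 to 7956 CPM in ML WT. In such bulk samples, fewer cells of a type and less RNA per cell cannot be told apart.

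In luminal progenitors the proteasome genes were higher in KO mice across most of the complex. At an adjusted p under 0.05, 22 of the 37 genes were higher in LP KO than in LP WT and 0 were lower, where 7.55% of all genes tested were called higher and 5.68% lower. The 22 were 4 of 7 alpha subunits, 6 of 7 constitutive beta subunits, all 3 inducible subunits, 3 of 6 ATPases and 4 of 11 other subunits of the 19S particle, and 2 of 3 PA28 subunits. The median log2 fold change was 0.809 over the 37 genes and 0.022 over all genes, and 34 of the 37 were above 0. For 28 of the 37, all KO libraries lay above all WT libraries, which held for 17.7% of all genes. None of the 37 was called in basal or ML cells, where 2.54% and 15.1% of all genes were.

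**Figure D1:**
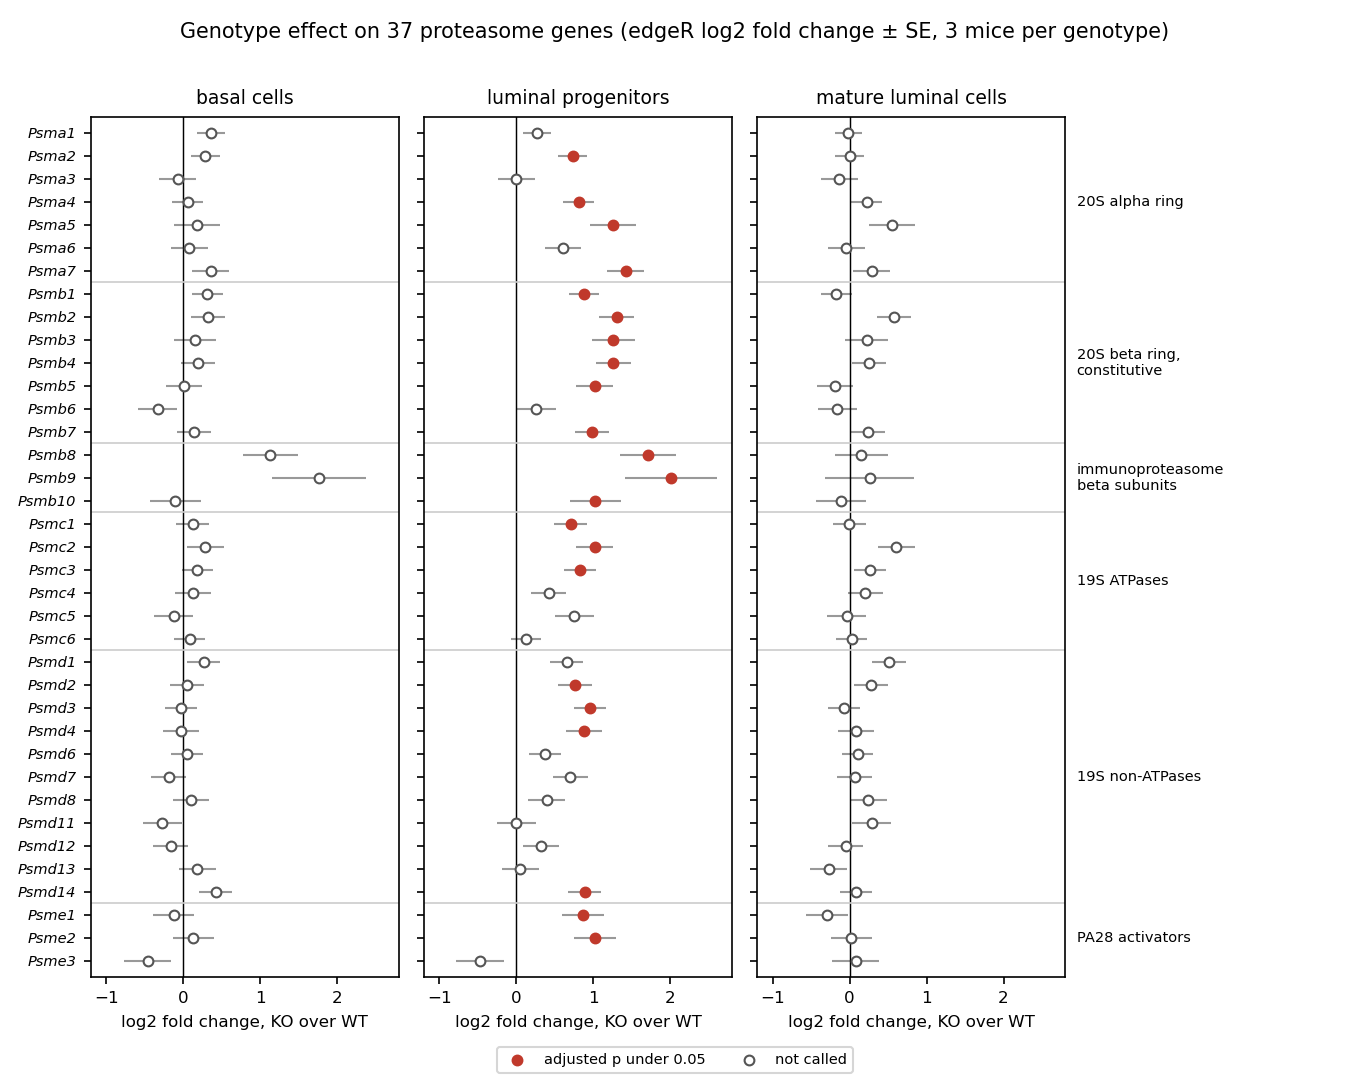
Log2 fold change of KO over WT (edgeR, ± SE, 3 mice per genotype) for each of the 37 genes, by role, in basal, luminal progenitor and mature luminal cells. Filled points passed an adjusted p of 0.05: 22 in luminal progenitors and 0 in the other populations.

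Among the alpha subunits, which form the outer rings and gate the core, Psma7 showed the largest difference in LP. It had 216, 182 and 329 CPM in KO, against 81.4, 75.9 and 115 CPM in WT (edgeR log2 fold change 1.42 ± 0.24 SE, adjusted p = 0.0014). The lowest KO library stood well above the highest WT library. Psma5 had 32.1, 28.2 and 42.4 CPM in KO, against 16.4, 11.8 and 14.8 CPM in WT (edgeR log2 fold change 1.26 ± 0.30 SE, adjusted p = 0.0118), again without overlap. Psma2 and Psma4 were called at smaller differences (0.73 and 0.81 on the log2 scale, adjusted p = 0.0189 and 0.0139, edgeR). Psma1, Psma3 and Psma6 were not called, at 0.27, -0.0037 and 0.60, and Psma3 is the alpha subunit whose LP groups overlapped: 50.6, 41.97 and 38.6 CPM in KO, against 51.4, 45.3 and 35.00 CPM in WT.

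The 7 constitutive beta subunits had a median log2 fold change of 1.018 in LP. Of them, 6 were called higher, where 7.55% of all genes were. Psmb2 and Psmb4, structural subunits without a cutting site, had the lowest p among them. Psmb2 had 162, 138 and 227 CPM in KO, against 71.1, 66.9 and 75.8 CPM in WT (edgeR log2 fold change 1.30 ± 0.23 SE, adjusted p = 0.00148). Psmb4 had 236, 196 and 363 CPM in KO, against 112, 109.5 and 110.3 CPM in WT (edgeR log2 fold change 1.26 ± 0.23 SE, adjusted p = 0.00195). The WT libraries of both genes were close together, and each KO library was higher. Psmb3 (1.26 ± 0.28 SE) and Psmb1 (0.88 ± 0.20 SE), also without a cutting site, were called at edgeR adjusted p = 0.00779 and 0.00834.

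Of the 3 constitutive cutting subunits, Psmb5 and Psmb7 rose in LP and Psmb6 was not called. Psmb5, the chymotrypsin-like beta5 site and the main target of the drug bortezomib, had 52.9, 46.9 and 61.2 CPM in KO, against 20.2, 28.1 and 30.96 CPM in WT (edgeR log2 fold change 1.02 ± 0.24 SE, adjusted p = 0.0101). Psmb7, the trypsin-like beta2 site, had 159, 151 and 228 CPM in KO, against 99.8, 75.5 and 96.5 CPM in WT (edgeR log2 fold change 0.99 ± 0.22 SE, adjusted p = 0.00838). Both rose without overlap of the genotypes. Psmb6, the caspase-like beta1 site, had 95.6, 77.8 and 144 CPM in KO, against 81.2, 87.5 and 96.9 CPM in WT (edgeR log2 fold change 0.26 ± 0.25 SE, adjusted p = 0.529). Its groups overlapped, since KO mouse 2 was below every WT mouse, and with the length trend described further on taken out its value was -0.136. The difference between Psmb6 and the other cutting subunits was not tested.

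All 3 inducible subunits rose in LP, and Psmb9 and Psmb8 had the largest fold changes of the 37 genes. Psmb8, the inducible beta5 (gene 16913, chromosome 17, 34198195 to 34201454 in mm10), had 226, 114 and 280.3 CPM in KO, against 39.6, 63.5 and 85.9 CPM in WT (edgeR log2 fold change 1.71 ± 0.36 SE, adjusted p = 0.0057). Psmb9, the inducible beta1 (gene 16912, chromosome 17, 34182030 to 34187330), had 64.2, 27.9 and 67.2 CPM in KO, against 3.70, 10.8 and 24.5 CPM in WT (edgeR log2 fold change 2.01 ± 0.60 SE, adjusted p = 0.0332). For both, the genotypes did not overlap, though for Psmb9 the lowest KO library was close to the highest WT library. Psmb10, the inducible beta2 (gene 19171, chromosome 8, 105935728 to 105938392), had 42.1, 21.9 and 63.2 CPM in KO, against 16.3, 20.1 and 25.9 CPM in WT (edgeR log2 fold change 1.03 ± 0.33 SE, adjusted p = 0.0472). KO mouse 2 lay within the WT range there. Psmb8 remained called without any single mouse (adjusted p 0.00212 to 0.0292, edgeR). Psmb9 lost its call without KO mouse 1 (adjusted p = 0.084), KO mouse 3 (0.104), WT mouse 1 (0.0983) or WT mouse 2 (0.122), and Psmb10 without the same 4 mice (0.0916, 0.258, 0.14 and 0.138). Over 16 alternatives, Psmb9 lost its call in 6 and Psmb10 in 9. For Psmb10 these included limma voom and RLE scaling of the libraries.

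**Figure D2:**
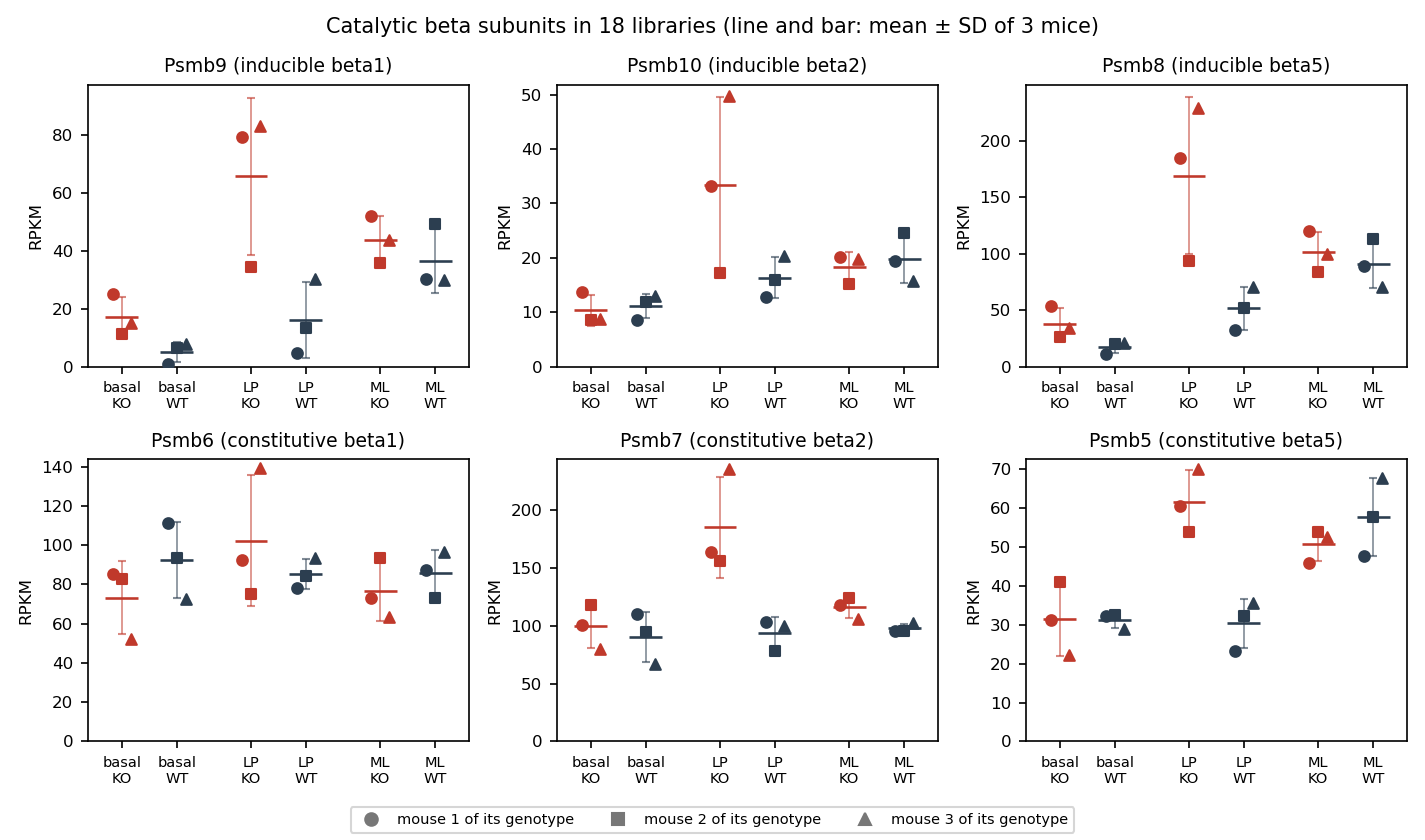
RPKM (reads per kilobase and per M counted reads) of the inducible and constitutive cutting subunits in each of 18 libraries, KO in red and WT in dark blue, with symbols for the mouse and bars for mean ± SD of 3 mice. LP KO libraries of Psmb8 lie at 93.2 to 229 RPKM and LP WT libraries at 32.4 to 70.2 RPKM.

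Within each genotype the inducible subunits were ordered alike by mouse. KO mouse 2 was the lowest of the 3 KO mice for Psmb8, Psmb9 and Psmb10 in every population. These are values of a single animal and not separate observations. For Psmb10 in basal cells, KO mice 2 and 3 were close, at 8.65 and 8.84 RPKM. In LP the order was not particular to inducible beta subunits. There KO mouse 2 was also lowest and KO mouse 3 highest for Psma7, Psme1 and Psme2. Among WT mice, mouse 1 was lowest and mouse 3 highest for all 3 genes in basal and LP cells, while in ML cells mouse 3 was lowest and mouse 2 highest. The spread was widest for Psmb9 in basal WT, where the highest library held 7.59 times the lowest. It was 6.61 times in LP WT and 2.41 times in LP KO.

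The promoters of the 3 inducible subunits and of Psme1 are shown because these are known targets of interferon, and that of Psmb5 as the constitutive partner of Psmb8. Windows run from 250 bases before to 50 bases after the RefSeq start site (GRCm38.p6, the mm10 assembly), and 31 of the 37 genes had one. Each is printed 5′ to 3′ on the strand of its gene. Capitals mark matches, on either strand, to 4 patterns: the interferon regulatory factor element, which is GAAA repeated after a gap of 2 bases, the gamma-activated sequence TTCNNNGAA, the antioxidant response element TGACNNNGC and the CCAAT box. The Psmb10 window holds 0 matches to the 4 patterns and each other window shown holds 1. Psme2 has 2 windows, not shown, with 0 matches. The GENCODE annotation places the outermost starts of Psmb8, Psmb9 and Psme1 upstream of their windows, so the matches depend on the start site used.
Psmb8, chr17:34197945-34198244, plus strand: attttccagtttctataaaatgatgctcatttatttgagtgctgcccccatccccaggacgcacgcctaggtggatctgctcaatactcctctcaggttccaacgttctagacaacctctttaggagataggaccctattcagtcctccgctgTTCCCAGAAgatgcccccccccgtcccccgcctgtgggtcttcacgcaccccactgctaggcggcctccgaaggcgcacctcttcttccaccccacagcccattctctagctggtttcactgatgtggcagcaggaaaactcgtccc
Psmb9, chr17:34187281-34187580, minus strand: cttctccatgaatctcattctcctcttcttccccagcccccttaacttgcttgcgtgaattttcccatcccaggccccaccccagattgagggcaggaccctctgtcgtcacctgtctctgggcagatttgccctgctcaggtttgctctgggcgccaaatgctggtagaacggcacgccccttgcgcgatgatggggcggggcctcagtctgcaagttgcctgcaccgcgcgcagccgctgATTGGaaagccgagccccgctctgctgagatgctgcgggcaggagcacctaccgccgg
Psmb10, chr8:105938343-105938642, minus strand: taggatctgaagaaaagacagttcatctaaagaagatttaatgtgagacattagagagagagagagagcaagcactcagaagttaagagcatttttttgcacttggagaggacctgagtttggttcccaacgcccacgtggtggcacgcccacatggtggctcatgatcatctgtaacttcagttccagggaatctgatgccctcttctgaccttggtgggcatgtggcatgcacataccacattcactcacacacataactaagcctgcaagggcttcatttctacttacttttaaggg
Psme1, chr14:55578244-55578543, plus strand: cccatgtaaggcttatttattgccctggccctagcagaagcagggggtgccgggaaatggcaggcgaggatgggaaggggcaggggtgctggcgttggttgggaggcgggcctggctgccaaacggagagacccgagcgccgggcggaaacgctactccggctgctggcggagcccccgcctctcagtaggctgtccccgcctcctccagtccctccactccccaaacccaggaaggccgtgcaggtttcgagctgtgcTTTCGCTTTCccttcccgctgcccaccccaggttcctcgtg
Psmb5, chr14:54617946-54618245, minus strand: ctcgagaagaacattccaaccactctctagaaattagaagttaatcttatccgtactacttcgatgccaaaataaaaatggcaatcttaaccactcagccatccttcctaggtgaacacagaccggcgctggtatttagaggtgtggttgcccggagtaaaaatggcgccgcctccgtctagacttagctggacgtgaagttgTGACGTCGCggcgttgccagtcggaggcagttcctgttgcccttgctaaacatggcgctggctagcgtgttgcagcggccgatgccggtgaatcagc

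The Psmb8 window holds TTCCCAGAA at position -97 from the start site, a match to the gamma-activated sequence pattern found in 8.47% of 27025 promoter windows of the genome and in 2 of the 31 of the proteasome (Psmb8 and Psmd2). Psme1 holds TTTCGCTTTC at position 10, after its start site. These bases are the reverse complement of a match to the interferon regulatory factor pattern. That pattern occurred in 3.49% of windows, and Psmb3 and Psmd4 were the other members with it. Psmb5 holds TGACGTCGC at position -47 from its start site. That antioxidant response pattern was in 12.5% of all windows and in 4 of the 31 of the proteasome (Psmb5, Psmb6, Psmc6 and Psmd12). The Psmb9 window held only a CCAAT box, read as ATTGG, a pattern found in 37.9% of all windows and 12 of the 31. Psmb9 and Tap1, the peptide transporter of class I presentation, are transcribed away from each other, with 225 bases between their RefSeq start sites, and their windows share 275 of 300 bases. A match describes letters and not a site in use.

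Because each inducible subunit takes the place of a constitutive one, its share of the pair was computed from RPKM. At beta1, Psmb9 made up 46.3%, 31.5% and 37.4% of Psmb9 plus Psmb6 in LP KO, against 5.5%, 13.7% and 24.5% in LP WT. The same share was 22.8%, 11.9% and 22.4% in basal KO, against 0.9%, 6.5% and 9.7% in basal WT. The genotypes did not overlap in either population. In ML cells they did, at 41.7%, 27.7% and 40.9% in KO, against 25.7%, 40.4% and 23.7% in WT. Averages were 38.4% ± 7.4 in LP KO against 14.6% ± 9.5 in LP WT, and 19.03% ± 6.1 in basal KO against 5.7% ± 4.5 in basal WT (SD, n = 3 each).

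At beta5 the inducible form was already the larger part of the pair in WT luminal cells. Psmb8 made up 75.2%, 63.4% and 76.5% of Psmb8 plus Psmb5 in LP KO, against 58.2%, 61.6% and 66.4% in LP WT, where KO mouse 2 lay within the WT range. In basal cells the share was 63.1%, 38.9% and 60.7% in KO, against 25.8%, 37.9% and 41.9% in WT, again with KO mouse 2 among the WT mice. In ML cells it was 72.4%, 60.9% and 65.3% in KO, against 65.2%, 66.3% and 50.8% in WT. The beta2 share was low and overlapped in every population, at 14.7% ± 4.2 in LP KO and 15.0% ± 3.4 in LP WT (SD, n = 3 each). Psmb10 and Psmb7, the members of that pair, both rose in LP. These shares are descriptions without a test. Psmb5 has a processed pseudogene with 98.9% identity over 88.4% of its transcript, so the level of Psmb5, and with it the beta5 share, is uncertain.

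**Figure D3:**
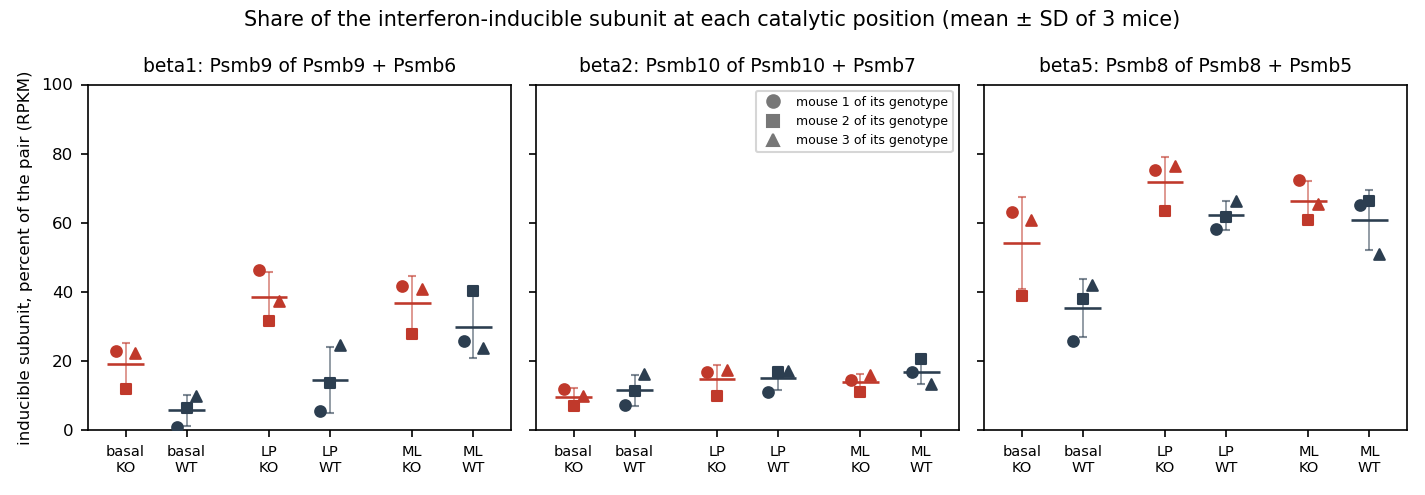
Share of the inducible subunit in its pair, as a percent of summed RPKM, in each library, KO in red and WT in dark blue, with mean ± SD of 3 mice. At beta1 the LP KO libraries lie at 31.5% to 46.3% and the LP WT libraries at 5.5% to 24.5%, while the beta2 shares of KO and WT overlap in every population.

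Of the 17 genes of the 19S particle, 7 rose in LP KO, where 7.55% of all genes did. Of its 6 ATPases, which unfold the substrate, Psmc2 had 201, 171 and 229 CPM in LP KO, against 104, 82.3 and 111 CPM in LP WT (edgeR log2 fold change 1.02 ± 0.24 SE, adjusted p = 0.0108). No KO library was as low as any WT library. Psmc1 and Psmc3 were also called (0.70 and 0.82, adjusted p = 0.0346 and 0.0158, edgeR). Psmc4, Psmc5 and Psmc6 were not, at 0.42, 0.75 and 0.13.

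Among the other 19S subunits, Psmd3, a scaffold subunit of the lid, had 231, 183 and 308 CPM in LP KO, against 124, 109 and 139 CPM in LP WT (edgeR log2 fold change 0.96 ± 0.21 SE, adjusted p = 0.00688). Psmd14, the deubiquitinase that removes ubiquitin chains from substrates, had 91.4, 98.9 and 104 CPM in KO, against 46.02, 51.7 and 61.3 CPM in WT (edgeR log2 fold change 0.88 ± 0.21 SE, adjusted p = 0.0121). Both were clear of overlap. The ubiquitin receptor Psmd4 and the large base subunit Psmd2 were called at 0.88 and 0.76 (adjusted p = 0.0208 and 0.0319, edgeR). Psmd1 and Psmd7 missed the threshold at 0.65 and 0.70 (adjusted p = 0.0525 and 0.0505). Psmd6, Psmd8, Psmd11, Psmd12 and Psmd13 were not called, at -0.0045 to 0.39, and all of these but Psmd6 had overlapping groups.

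Of the PA28 genes, Psme1 and Psme2, the interferon-inducible alpha and beta subunits of cytoplasmic PA28, were higher in LP KO. Psme1 had 149, 110.0 and 249 CPM in KO, against 80.4, 94.6 and 103 CPM in WT (edgeR log2 fold change 0.87 ± 0.27 SE, adjusted p = 0.041). Psme2 had 23.7, 17.7 and 33.8 CPM in KO, against 9.87, 12.7 and 14.5 CPM in WT (edgeR log2 fold change 1.02 ± 0.27 SE, adjusted p = 0.0207). Neither overlapped. Psme3, the nuclear PA28 gamma, had 137, 153 and 80.6 CPM in KO, against 219, 153 and 142 CPM in WT (edgeR log2 fold change -0.47 ± 0.31 SE, adjusted p = 0.322), and its groups overlapped. The difference between Psme3 and the other PA28 genes was not tested. Counts of Psme2 are uncertain, since the annotated gene Psme2b matches 82.5% of it at 99.4% identity. Psme1 lost its call without KO mouse 1, KO mouse 3, WT mouse 1 or WT mouse 2 (adjusted p = 0.0603, 0.244, 0.118 and 0.114, edgeR). Psme2 lost it without KO mouse 3, WT mouse 1 or WT mouse 2 (0.1, 0.0738 and 0.0706). Over 16 alternatives, Psme1 lost its call in 8, among them limma voom, and Psme2 in 6.

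The KO libraries of LP were unequal, and KO mouse 3 was the highest. Relative to each gene's mean over 18 libraries, the median of the 31 constitutive 20S and 19S genes was 1.348, 1.184 and 1.623 in LP KO mice 1, 2 and 3, against 0.882, 0.752 and 0.845 in LP WT. KO mouse 3 held the highest of all 18 values for 24 of the 31 genes. That library also had the highest summed level of 18 immune markers, at 48.75 CPM, where the other LP KO libraries had 9.965 and 5.94 CPM and LP WT libraries 3.113 to 4.659 CPM. Of the 48.75 CPM, 25.3 CPM were from Lyz2, a myeloid and secretory lysozyme. Ptprc (CD45) was at most 1.09 CPM in LP libraries. Of the 18 markers, 7 passed the filter, and 3 of those, Csf1r, Coro1a and Itgam, rose in LP KO, where 7.55% of all genes did. All 7 were above 0, with a median log2 fold change of 3.042 against 0.022 over all genes. For 4 of the 7, all KO libraries lay above all WT libraries, as for 17.7% of all genes. Coro1a was near the floor, at 0.876, 0.335 and 1.482 CPM in LP KO, against 0, 0.222 and 0 CPM in LP WT. Without KO mouse 3, 14 of the 37 genes and 7.08% of all genes were called in LP, and the median over the 37 was 0.606. The part of immune cells in the LP values was not tested. Of 7 markers of mature luminal cells, 4 were called lower in LP KO, where 5.68% of all genes were, and 2 were above 0. The 7 summed to 154 to 352 CPM in LP KO, against 565 to 787 CPM in LP WT.

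**Figure D4:**
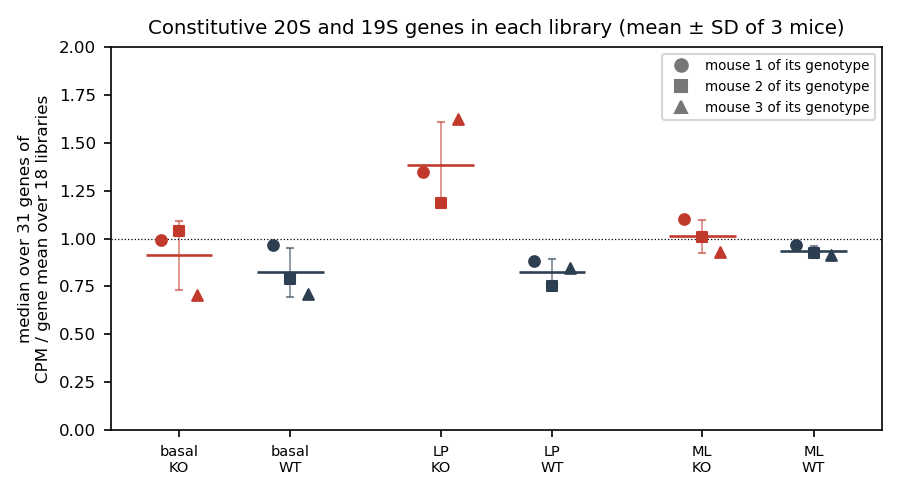
Median over the 31 constitutive 20S and 19S genes of CPM divided by the gene's mean over 18 libraries, for each library, KO in red and WT in dark blue, with mean ± SD of 3 mice. The LP KO libraries lie at 1.184 to 1.623 and the LP WT libraries at 0.752 to 0.882.

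Gene length moved with the LP difference. Proteasome genes are short, with a median of 1270 bases against 2678 bases for all genes tested, and 89.2% were under 2000 bases against 34.4%. In LP, all genes under 1000 bases had a median log2 fold change of 0.41, and the classes above that had 0.335, 0.19, 0.085, -0.088 and, over 5000 bases, -0.37. The class medians lay between -0.075 and 0.043 in basal cells and between -0.029 and 0.078 in ML cells. With a smooth length trend taken out of every library, 10 of the 37 genes were called higher in LP, where 11.6% of all genes were called in either direction. The median over the 37 genes was then 0.480 and that over all genes -0.003. The 10 were Psma7, Psmb2, Psmb3, Psmb4, Psmb5, Psmb8, Psmc2, Psmd14, Psmd2 and Psmd3. With the trend removed Psma7 had a log2 fold change of 1.01 (adjusted p = 0.00353, edgeR) and Psmb8 one of 1.37 (adjusted p = 0.0156). Psmb9 then had 1.65 (adjusted p = 0.0731), Psmb10 0.668 (0.158), Psme1 0.446 (0.226) and Psme2 0.625 (0.0885). Depth also differed by genotype in LP, and with every library thinned to 5.97 M counts 24 of the 37 genes and 14.2% of all genes were called. Leaving out WT mouse 2 left 7 of the 37 and 4.89% of all genes called, and a fit to the 6 LP libraries alone left 6 and 4.80%.

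**Figure D5:**
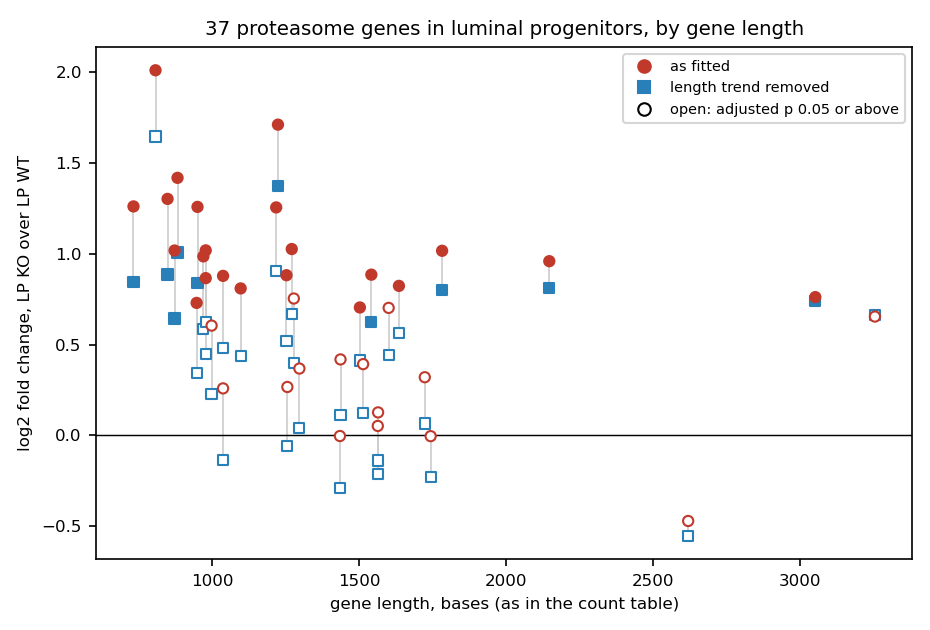
Log2 fold change of LP KO over LP WT (edgeR) against gene length for the 37 genes, as fitted (red circles) and with the length trend removed (blue squares), joined by lines for each gene. Filled symbols passed an adjusted p of 0.05: 22 as fitted and 10 with the trend removed, and the genes over 2000 bases moved least.

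Partners of the proteasome were read from lists of related genes. Of 19 assembly factors and other cofactors, 5 rose in LP KO and 0 fell, where 7.55% of all genes rose. Pomp, the chaperone that completes assembly of the core, had 133, 117 and 180.1 CPM in LP KO, against 54.7, 50.7 and 51.1 CPM in LP WT (edgeR log2 fold change 1.46 ± 0.22 SE, adjusted p = 0.000468). Its genotypes were far apart, and Pomp remained called without any single mouse and with the length trend removed (log2 fold change 1.02). Sem1, a 19S lid subunit, and Adrm1, a ubiquitin receptor, were at 0.99 and 0.90 (adjusted p = 0.0157 and 0.0171, edgeR). The assembly chaperones Psmd9 and Psmg1 were at 0.77 and 0.94 (adjusted p = 0.0276 and 0.0284). Sem1, Adrm1 and Psmd9 lost their calls in 4, 5 and 6 of 16 alternatives, among them without WT mouse 2 or KO mouse 3, and Sem1 was at 0.494 with the length trend removed. Nfe2l1 RNA was not called in LP (-0.32, adjusted p = 0.244, edgeR), and the activity of its protein was not measured. Of 14 ubiquitin and unfolding genes, the unfoldase Vcp was called higher (0.66, adjusted p = 0.0212), a share near that of all genes. Vcp lost its call in 4 of 16 alternatives, among them without KO mouse 1 or WT mouse 2. No gene of either list was called in basal or ML cells, where 2.54% and 15.1% of all genes were.

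Of 12 class I processing genes, 5 rose in LP KO: the heavy chain H2-K1 (1.74), its light chain B2m (1.87), tapasin Tapbp (1.10), Tap1 (1.65) and the class I transactivator Nlrc5 (1.71), at edgeR adjusted p of 0.0019 to 0.0294. Of all genes tested, 7.55% rose in LP. H2-K1 and B2m kept their calls in all 16 alternatives, and Tapbp and Tap1 lost theirs in 2 and 5. Of 22 interferon-stimulated genes, 18 rose in basal, 17 in LP and 12 in ML cells of the KO mice, with 0 lower. Of 12 genes responsive to interferon gamma or IRF1, 8, 6 and 5 rose. Over all genes tested, 2.54%, 13.2% and 15.1% were called in basal, LP and ML cells, in either direction. Usp18, which restrains interferon signalling, was at 3.92 in basal and 4.53 in LP cells (adjusted p = 5.69e-05 and 5.7e-05, edgeR), and was not called in ML cells (0.80, adjusted p = 0.217). The chemokine Cxcl9 was at 4.74, 4.13 and 5.72 in basal, LP and ML cells (adjusted p = 2.55e-05, 0.000169 and 2.75e-06). RNA of Irf1, a known activator of the inducible subunits, was not called in any population (0.08, 0.003 and 0.16). The activity of its protein was not measured.

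In basal cells, Psmb8 and Psmb9 did not pass the test over all genes, and their KO libraries all lay above their WT libraries, as for 10.8% of all genes. Psmb8 had 65.3, 31.9 and 41.8 CPM in basal KO, against 13.8, 24.3 and 25.4 CPM in basal WT (edgeR log2 fold change 1.13 ± 0.36 SE, adjusted p = 0.129). Psmb9 had 20.2, 9.04 and 12.1 CPM in KO, against 0.832, 5.20 and 6.31 CPM in WT (edgeR log2 fold change 1.76 ± 0.61 SE, adjusted p = 0.191). KO mouse 1 was the highest for both, and WT mouse 1 the lowest. Psmb10 had 17.4, 10.99 and 11.2 CPM in KO, against 10.97, 15.1 and 16.5 CPM in WT (edgeR log2 fold change -0.10 ± 0.33 SE, adjusted p = 0.978), and overlapped. Tap1, the neighbour of Psmb9, was called, at 261, 106 and 198 CPM in KO, against 33.4, 85.1 and 42.7 CPM in WT (edgeR log2 fold change 1.81 ± 0.44 SE, adjusted p = 0.0326), and so was B2m (1.48, adjusted p = 0.0382). Luminal progenitor markers summed to 73.1 to 174 CPM in basal KO, against 36.6 to 49.1 CPM in basal WT, and their part in these values was not tested. Tap1 lost its call without KO mouse 1, KO mouse 3, WT mouse 1 or WT mouse 3 (adjusted p = 0.13, 0.0947, 0.159 and 0.165). B2m lost its call in 7 of 16 alternatives, among them without any mouse but KO mouse 2 (adjusted p up to 0.171). In the GENCODE annotation, whose outermost Psmb9 start (34187764) lies beyond the RefSeq start of Tap1 (34187556), Psmb9 and Tap1 share 212 exon bases on opposite strands. No source used here gives the strand setting of the counting. Exons of Psmb8, Psmb7, Psmc3 and Psmd13 likewise overlap another gene, by 498, 405, 215 and 342 bases. Psmd1 shares 301 exon bases with Gm21972 on the same strand and 252 with Htr2b on the opposite strand. Psma4, Psma5, Psmb5, Psmd3 and Psme1 overlap other genes by 14 to 114 bases, on the same strand for Psmb5.

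No constitutive gene was called in basal cells. Of the 37 genes, 4 had all KO libraries above all WT libraries (Psmb8, Psmb9, Psma1 and Psmb1), a share that is also that of all genes. By edgeR, DESeq2 and limma voom, 0 were called, where 2.54%, 4.21% and 2.35% of all genes were. The median log2 fold change was 0.122 over the 37 genes and -0.02 over all genes, and the 31 constitutive genes ranged from -0.333 (Psmb6) to 0.419 (Psmd14). PA28 genes were at -0.12 for Psme1, 0.13 for Psme2 and -0.46 for Psme3. Psmb5 was at 0.01 and Psmb7 at 0.14.

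In mature luminal cells the inducible subunits were not called, and their genotypes overlapped. Psmb8 had 147, 103 and 121 CPM in ML KO, against 109, 139 and 85.8 CPM in ML WT (edgeR log2 fold change 0.15 ± 0.35 SE, adjusted p = 0.821). Psmb9 had 42.1, 28.8 and 35.3 CPM in KO, against 24.4, 39.8 and 24.2 CPM in WT (edgeR log2 fold change 0.26 ± 0.58 SE, adjusted p = 0.814). KO mouse 1 was the highest KO library and WT mouse 2 the highest WT library for both, and Psmb10 was at -0.11 ± 0.33 SE. By edgeR, DESeq2 and limma voom, 0 of the 37 genes were called, where 15.1%, 18.7% and 14.0% of all genes were. All KO libraries lay above all WT libraries for 8 of 37, where 21.6% of all genes did so. The lowest adjusted p were those of Psmb2 (0.58, adjusted p = 0.0912, edgeR) and Psmc2 (0.61, adjusted p = 0.0986), and the median over the 37 genes was 0.078. Psmb5, Psmb6 and Psmb7 were at -0.18, -0.16 and 0.24, and Psme1, Psme2 and Psme3 at -0.29, 0.02 and 0.08. ML KO libraries held more basal markers and fewer mature luminal markers than ML WT, as given above. They also held more luminal progenitor markers, with sums of 339 to 1162 CPM in ML KO, against 103 to 126 CPM in ML WT. All 6 of these markers rose, where 15.1% of all genes were called in either direction. The part of these shifts in the proteasome values was not tested.

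Whether the genotype difference in LP exceeded that in the other populations was tested as an interaction in the same fit. Against ML cells, 3 of the 37 genes had a larger KO difference in LP, where 1.23% of all genes did: Psmb1 (edgeR difference of log2 fold changes 1.05 ± 0.28 SE, adjusted p = 0.0273), Psmb5 (edgeR difference of log2 fold changes 1.20 ± 0.33 SE, adjusted p = 0.0341) and Psmd3 (edgeR difference of log2 fold changes 1.03 ± 0.30 SE, adjusted p = 0.0401). Of the 37, 35 had a positive value, and the median was 0.702 over the 37 genes and -0.07 over all genes. Since all 3 populations came from the same mice, the fit was repeated with the mouse as a block. It called 6 of the 37 genes and 10.5% of all genes in either direction, against 6.93% without the block, adding Psma7, Psmb8 and Psmb9 to the 3, with Psmb8 at 1.56 (adjusted p = 0.0148) and Psmb9 at 2.05 (adjusted p = 0.0356). Without the block, Psmb8 was at 1.56 (adjusted p = 0.0697) and Psmb9 at 1.75 (adjusted p = 0.224). Psmb10, Psmb6, Psmb7, Psme1, Psme2 and Psme3 were not called, at 1.14, 0.42, 0.74, 1.16, 1.00 and -0.55. Pomp also differed (edgeR difference of log2 fold changes 1.39 ± 0.30 SE, adjusted p = 0.00732). Leaving out any single mouse left 0 of the 37 genes called, except that without WT mouse 3 Psmb8 alone was called. Of all genes, 3.58% to 5.25% were then called, in either direction.

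Against basal cells, edgeR called 0 of the 37 genes for a different effect in LP, where 1.02% of all genes were called. DESeq2 called 1 (Psmd3), where it called 3.39% of all genes, and limma voom 0, where it called 0.516%. The median difference was 0.592 over the 37 genes and -0.001 over all genes. Psmb8 was at 0.58 ± 0.50 SE and Psmb9 at 0.25 ± 0.84 SE on the log2 scale (adjusted p = 0.636 and 0.927, edgeR). Psmb10, Psmb5, Psmb6 and Psmb7 were at 1.13, 1.00, 0.59 and 0.84, and Psme1, Psme2 and Psme3 at 0.99, 0.89 and -0.01. Between ML and basal cells 0 were called by edgeR, DESeq2 and limma voom, where these called 6.10%, 8.73% and 4.59% of all genes. Psmb8, Psmb9 and Psmb10 were at -0.98, -1.50 and -0.01 there, and the other cutting and PA28 subunits at 0.54 (Psme3), -0.20 (Psmb5), 0.17 (Psmb6), 0.10 (Psmb7), -0.17 (Psme1) and -0.11 (Psme2).

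The populations differed in the inducible subunits without the mutation too. In WT mice, Psmb8 had 109, 139 and 85.8 CPM in ML and 39.6, 63.5 and 85.9 CPM in LP cells, against 13.8, 24.3 and 25.4 CPM in basal cells. ML and LP libraries all lay above the basal libraries. It was higher in ML than in basal cells (edgeR log2 fold change 2.40 ± 0.37 SE, adjusted p = 3.24e-05) and higher in LP than in basal cells (edgeR log2 fold change 1.58 ± 0.36 SE, adjusted p = 0.00209), while LP and ML did not differ past the threshold (edgeR log2 fold change -0.82 ± 0.35 SE, adjusted p = 0.0821). With the mouse as a block that last difference was called, together with Psmb9 and Psme1. Psmb9 was also higher in ML and in LP than in basal cells (2.86 and 1.70, adjusted p = 0.000961 and 0.0372, edgeR). Psmb10 was higher in ML than in basal cells (0.83, adjusted p = 0.0419), and between LP and basal cells it was at 0.56. That ML call of Psmb10 was lost in 6 of 12 alternatives, among them DESeq2, limma voom and without WT mouse 1 or 2 (adjusted p up to 0.251). The LP call of Psmb9 was lost with limma voom and without WT mouse 2 or 3 (adjusted p up to 0.21).

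Of the 37 genes, 11 were higher and 1, Psmd11, lower in ML WT than in basal WT, where 24.8% of all genes were higher and 28.5% lower. Beside the inducible subunits the 11 included Psmb1 (0.89), Psmb5 (0.89), Psmd14 (0.84), Psmd3 (0.81) and Psme1 (0.83), at edgeR adjusted p of 0.00109 to 0.0146. Psma1, Psma2 and Psmd13 completed them, at 0.62, 0.58 and 0.67. Between LP WT and basal WT, 2 genes were higher, Psmb8 and Psmb9, against 16.9% of all genes. Psmb5, Psmb1, Psmd14 and Psme2 were lower in LP WT than in ML WT (-0.93, -0.59, -0.60 and -0.73, adjusted p = 0.00582 to 0.0478), where 15.7% of all genes were lower. With the mouse as a block, 7 of the 37 and 39.4% of all genes were called in that comparison. Psmb6, Psmb7 and Psme3 were called in none of the WT comparisons, and were at -0.11, 0.11 and -0.42 between ML and basal, -0.11, 0.05 and 0.25 between LP and basal, and -0.0022, -0.07 and 0.67 between LP and ML cells. Psmb5, Psme1 and Psme2 were at -0.04, 0.15 and -0.12 between LP and basal cells. Without WT mouse 2, 5 genes were called between ML and basal cells and 0 between LP and ML cells, and without WT mouse 3 the first was 7.

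Levels were spread widely among the constitutive genes. In LP, group means of the 31 genes ran from 28.1 RPKM (Psma5) to 279 RPKM (Psmb4) in KO, with a median of 104.9, against 11.8 RPKM (Psma5) to 117 RPKM (Psmb4) in WT, with a median of 63.8. Psma5 was the lowest of the 31 in all 6 groups. It is among 8 members with a near-identical copy elsewhere in the genome (95% identity or more over at least 50% of the transcript), with Psma4, Psmb3, Psmb5, Psmc1, Psmd11, Psmd2 and Psme2. No source used here says how reads that fit more than 1 place were counted, so levels of these 8 are uncertain.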

How the data were processed

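RNA of 18 sorted mammary libraries was sequenced from TruSeq RNA v2 libraries, and reads were counted on mm10 with featureCounts, per the labels. The deposited values are raw counts per gene, with no normalisation by the authors. No source used here names the aligner, annotation or strand setting. The members and the gene lists were chosen with earlier results of these data known. Group and mouse number came from the sample labels.

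Counts were tested with edgeR 4.0.16 in R 4.3.3: genes were filtered with filterByExpr, scaled by TMM and fitted over all 18 libraries with 1 coefficient per group (biological coefficient of variation 33.3%). Quasi-likelihood p-values were adjusted by Benjamini-Hochberg over the 16466 genes tested, with a threshold of 0.05. The interaction is the difference between 2 populations in the KO over WT effect. CPM used TMM-scaled totals, and RPKM divided these by the deposited gene length. Genes named by rule were, in each comparison, up to 10 called members of lowest p, the cutting, inducible and PA28 subunits, up to 4 called genes of each related list, and Brca2 and Trp53. Other named genes were chosen after their values were seen. Promoters came from RefSeq.

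Alternatives were DESeq2 1.42.0, limma 3.58.1 voom, RLE scaling, no filter, thinning to 5.97 M counts, removal of a length trend, the 6 libraries of 1 population, a replicate block, and leaving out each mouse. Libraries of 1 mouse share that mouse, per the sample descriptions. Their deviations from the group means correlated at 0.095 to 0.334, over 0.1 in 17 of 18 pairs. KO and WT libraries of the same population and number, which are from different mice, correlated at -0.098 to 0.258. The ranges overlap, and the difference between them was not tested. No 2 libraries of a group agreed within counting noise (chi-square per degree of freedom 22.8 to 215).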

Additional observations from a re-analysis of the deposited data

Results flagged for a closer look

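For 3 genes the KO over WT effect differed between LP and ML cells by the test of the interaction, with larger values in LP. The difference was 1.03 (log2) for Psmd3, 1.05 for Psmb1 and 1.20 for Psmb5 (adjusted p = 0.0401, 0.0273 and 0.0341, edgeR). LP KO libraries of each gene lay above all LP WT libraries. Leaving out any single mouse ended all 3 calls, and all 3 remained called with the mouse as a block.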

How the results depend on the processing

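Counts of the 37 genes moved by over 1.5 times as follows. After each count stands the percent of all genes tested that the same setting called, in either direction. In KO over WT in LP, 22 were called (13.2%). The count was 10 with the length trend removed (11.6%), 6 with 6 libraries alone (4.8%) and 12 with number as replicate block (8.61%). Without single mice it was 7 to 23 (4.89% to 14.2%). In the interaction of LP and basal cells, where 0 were called (1.02%), the count was 1 with DESeq2 (3.39%). In the interaction of LP and ML cells, 3 were called (6.93%). The count was 0 with no filter (5.12%), 6 with DESeq2 (10.5%) and 6 with mouse as replicate block (10.5%). It was 5 with mouse as replicate block and length trend removed (11.3%), and 0 to 1 without single mice (3.58% to 5.25%). In LP against basal cells in WT, 2 were called (36.1%). The count was 1 with limma voom (35.3%) and 4 with mouse as replicate block and length trend removed (44.9%). Without single mice it was 1 to 2 (22.9% to 31.4%). In LP against ML cells in WT, where 4 were called, the count was 1 (no filter), 7 (mouse as replicate block) and 8 (mouse as replicate block and length trend removed), and 0 to 3 without single mice. In ML against basal cells in WT, where 12 were called (53.3%), the count was 5 to 9 without single mice (39.2% to 45.3%). The cause of these shifts was not tested, except that leaving out mice or populations lowers the number of libraries. These uncalled log2 values changed sign: in KO over WT in basal cells, Psmb10 0.0993 (thinned), Psmb5 -0.036 (length trend removed), Psmb5 -0.0282 (number as replicate block). In KO over WT in LP, Psmb6 -0.136 (length trend removed). In KO over WT in ML cells, Psme2 -0.0136 (thinned), Psme2 -0.0772 and Psme3 -0.0254 (length trend removed). In the interaction of LP and basal cells, Psmb9 -0.0623 (mouse as replicate block and length trend removed), Psme3 0.0156 (no filter), Psme3 0.0292 (thinned). In the interaction of ML and basal cells, Psmb10 0.0237 (no filter), Psmb10 0.0235 (limma voom). In LP against basal cells in WT, Psmb7 -0.0002 (no filter), Psme2 0.219 (thinned). In LP against ML cells in WT, Psmb6 0.0297 (RLE scaling), Psmb6 0.0172 (no filter), Psmb6 0.0298 (DESeq2), Psmb6 0.0073 (limma voom), Psmb6 0.0511 (thinned), Psmb6 0.0032 (mouse as replicate block), Psmb6 0.0885 and Psmb7 0.0111 (mouse as replicate block and length trend removed). Leaving out single mice gave ranges across 0: In KO over WT in basal cells, Psmb10 -0.351 to 0.0146, Psmb5 -0.228 to 0.209, Psmb7 -0.0348 to 0.303, Psme1 -0.414 to 0.0644, Psme2 -0.0247 to 0.317. In KO over WT in LP, Psmb6 -0.0291 to 0.44. In KO over WT in ML cells, Psmb10 -0.257 to 0.0722, Psme2 -0.0361 to 0.107. In the interaction of LP and basal cells, Psmb9 -0.113 to 0.722, Psme3 -0.248 to 0.113. In the interaction of ML and basal cells, Psmb10 -0.241 to 0.173, Psmb5 -0.42 to 0.0347, Psmb7 -0.058 to 0.344, Psme1 -0.496 to 0.137, Psme2 -0.344 to 0.0658. In LP against basal cells in WT, Psmb5 -0.267 to 0.142, Psmb6 -0.374 to 0.0968, Psmb7 -0.22 to 0.153, Psme1 -0.0106 to 0.288, Psme2 -0.406 to 0.0737. In LP against ML cells in WT, Psmb6 -0.0829 to 0.085, Psmb7 -0.142 to 0.0443. In ML against basal cells in WT, Psmb6 -0.411 to 0.0117, Psmb7 -0.155 to 0.273, Psme3 -0.709 to 0.103. Over 133 values of single genes, 1731 setting changes kept direction and side of the threshold, 150 lost the call, 16 gained one and 62 changed sign. No value that changed sign had been called. Psma7, Psmb2, Psmb3, Psmb4 and Psmb8 kept their LP call under all 16 alternatives. Of the 16, robust spread estimates (22 called in LP, 13.3% of all genes) and bias-adjusted deviances (24, 15.0%) were chosen after seeing the data. With the mouse as a block no other count of calls moved by over 1.5 times. Depth and 3 mice per group limit what could be detected.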
